A study of Homo sapiens with 24 samples.

Results

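The NF-kB subunits and their feedback regulators were followed through 24 libraries of 2 human bladder cancer cell lines. The gene set held 10 of the 58721 genes in the count table, chosen by name. The subunits were NFKB1, NFKB2, RELA and RELB, and the inhibitors were NFKBIA and NFKBIE. The feedback enzymes TNFAIP3 and BIRC3, the TNF-induced gene TNFAIP2 and the kinase-family adaptor IRAK2 made up the rest. All 10 passed the filter on low counts in both lines. RT112 is a line of luminal papillary type, and SCaBER is a basal/squamous line. Each line was transfected in a lipid reagent with siControl, siZBED2-1, siZBED2-2, siFOXA1, siFOXA1+siZBED2-1 or siFOXA1+siZBED2-2, and all 12 groups held 2 libraries. RNA was measured by 3′ RNA-seq, in which reads start near the poly-A end of a transcript. Every group, the controls included, had received an siRNA, so untransfected cells form no part of the comparisons. Each line is 1 culture model, and a single FOXA1 siRNA was used per the labels.

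NF-kB is a family of dimeric transcription factors that sit in the cytoplasm bound to IkB proteins until a receptor for TNF, interleukin-1 or a microbial product switches on the IkB kinases. RELA pairs mostly with the NFKB1 product in the canonical pathway, and RELB pairs with the NFKB2 product in the slower non-canonical pathway. Several genes switched on by NF-kB encode its own brakes. NFKBIA (IkB alpha) pulls dimers off DNA, TNFAIP3 is a ubiquitin-editing enzyme that shuts receptor complexes down, and BIRC3 is a ubiquitin ligase that acts in receptor complexes and in the turnover of the non-canonical kinase.

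Promoters of 8 members were found in RefSeq (GRCh38.p14), as windows of 250 bases before and 50 after a transcript start, 1 window a gene, while RELB and NFKBIE were not matched. That start is the outer 5′ end of the RefSeq gene for NFKBIA, BIRC3 and IRAK2. It lies 1595 bases inside the gene for NFKB2, 910 for TNFAIP3, 1992 for TNFAIP2, 941 for RELA and 575 for NFKB1. A kappaB consensus, the sequence bound by NF-kB dimers, was searched on both strands. It was present in 4 of the 8 windows (NFKB2, NFKBIA, TNFAIP3 and BIRC3) and in 5.91% of the 35114 windows of this length. The set was chosen as NF-kB subunits and feedback regulators, and this share was not tested. These 4 genes all rose with siFOXA1 in RT112, as did RELB, which had no window. Any part of the matches in that rise was not tested. The windows of the 4 are printed because these genes rose, 5′ to 3′ on the strand of the gene, with each kappaB match in capitals.
NFKB2 promoter: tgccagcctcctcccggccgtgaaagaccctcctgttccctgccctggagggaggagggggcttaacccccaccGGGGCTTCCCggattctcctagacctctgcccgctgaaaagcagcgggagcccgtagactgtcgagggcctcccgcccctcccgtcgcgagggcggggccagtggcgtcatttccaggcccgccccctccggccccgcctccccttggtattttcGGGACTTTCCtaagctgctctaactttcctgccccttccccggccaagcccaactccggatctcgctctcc
NFKBIA promoter: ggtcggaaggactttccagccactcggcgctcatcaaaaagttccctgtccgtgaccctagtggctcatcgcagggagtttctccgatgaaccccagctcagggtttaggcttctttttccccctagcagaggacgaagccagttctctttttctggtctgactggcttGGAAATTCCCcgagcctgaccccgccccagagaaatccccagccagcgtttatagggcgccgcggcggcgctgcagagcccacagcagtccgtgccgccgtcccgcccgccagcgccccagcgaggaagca
TNFAIP3 promoter: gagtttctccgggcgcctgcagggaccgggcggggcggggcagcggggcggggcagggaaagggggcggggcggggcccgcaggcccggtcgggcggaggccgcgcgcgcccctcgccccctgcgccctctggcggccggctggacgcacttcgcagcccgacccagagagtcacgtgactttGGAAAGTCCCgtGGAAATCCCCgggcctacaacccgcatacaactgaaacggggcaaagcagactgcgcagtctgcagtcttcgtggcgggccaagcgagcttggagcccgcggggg
BIRC3 promoter: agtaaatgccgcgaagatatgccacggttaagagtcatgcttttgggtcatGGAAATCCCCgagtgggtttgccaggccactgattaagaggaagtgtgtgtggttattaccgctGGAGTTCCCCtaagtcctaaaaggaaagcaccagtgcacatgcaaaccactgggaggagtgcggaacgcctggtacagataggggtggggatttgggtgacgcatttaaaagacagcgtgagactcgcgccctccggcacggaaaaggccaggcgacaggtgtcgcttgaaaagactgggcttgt
The windows lie at chr10:102395455-102395754 (NFKB2, plus strand), chr14:35404700-35404999 (NFKBIA, minus strand), chr6:137867009-137867308 (TNFAIP3, plus strand) and chr11:102317234-102317533 (BIRC3, plus strand). NFKB2 held matches at -176 to -167 and at -21 to -12, counted from the window's transcript start. In TNFAIP3 a pair of matches stood side by side, at -67 to -58 and at -55 to -46. NFKBIA held 1 match, at -81 to -72, and BIRC3 held matches at -199 to -190 and at -135 to -126. The windows of NFKB1, RELA, TNFAIP2 and IRAK2 had no such match. The forkhead motif TGTTTAC, the motif class of FOXA1, was in 0 of the 8 windows and in 3.42% of all windows. An AP-1 motif of the letters TGACTCA or TGAGTCA was in 0 of 8 and in 4.95%, and the letters TTTCNNTTTC of an interferon response element were in 0 of 8 and in 3.57%. These are matches of letters, and binding was not measured.

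The libraries held between 4425404 and 6119210 counts. A count of 0 allows up to 3 counts, which were worth 0.474 to 0.678 CPM (depth-scaled counts, on library sizes corrected with TMM factors), which covers counting error only. FOXA1, the luminal forkhead factor that was targeted, stood at 31.4 to 56.9 CPM in the 6 RT112 libraries without its siRNA and at 4.03 to 15.6 in the 6 with it. In SCaBER FOXA1 was low throughout, at 0.184 to 5.51 CPM without and 0 to 1.36 with its siRNA. ZBED2, a zinc finger factor, was at 0 to 7.33 CPM in the 8 RT112 libraries with a ZBED2 siRNA and at 16.9 and 22.0 under siControl. The RT112 siFOXA1 libraries were also low in ZBED2, at 5.45 and 1.52 CPM. In SCaBER the ZBED2 siRNAs left 1.69 to 15.8 CPM beside 18.9 in both siControl libraries, and the highest value belonged to siZBED2-2 replicate 2. The 2 libraries of RT112 siZBED2-2 differed more from each other than any other pair of replicates. Under siControl the basal markers KRT5, KRT14, KRT6A (973 CPM), KRT6B, CDH3 and COL17A1 (1105 CPM) were higher in SCaBER than in RT112. KRT16 and TP63 went the other way, at 23.4 and 18.7 CPM in SCaBER and at 54.4 and 25.2 in RT112. RT112 also held KRT5 at 195 CPM, beside 815 in SCaBER. GATA3 was high in RT112 (504 CPM), while KRT20 and UPK3A had no count in the siControl libraries of either line. Of the immune cell markers, PTPRC, CD3E and LYZ had no count in either siControl, and the 6 markers together reached 5.72 CPM at most.

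The level of the set was first compared between the lines under siControl. SCaBER held more of 7 members, and 33.6% of all 14823 genes tested differed between the lines in either direction. The median log2 difference (SCaBER over RT112) of the 10 members was 1.76, beside 0 over all genes. All 4 subunits were higher in SCaBER. For RELB, the partner of the NFKB2 product, 7 and 6 counts in RT112 siControl faced 270 and 234 in SCaBER, a log2 difference of 5.19 (SE 0.420, adjusted p 5.74e-12). NFKB2 stood at 11.6 and 11.4 CPM in RT112 and at 52.5 and 44.2 in SCaBER (2.07, SE 0.251, adjusted p 3.98e-08). NFKB1 and RELA differed less, by 1.71 (SE 0.203, adjusted p 2.72e-08) and 1.09 (SE 0.164, adjusted p 2.12e-06). Thus the non-canonical partner RELB showed the largest line difference among the subunits, on the log2 scale.

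Among the regulators, BIRC3 had the largest difference. It held 12 and 10 counts in RT112 siControl and 2101 and 1600 in SCaBER, a log2 difference of 7.31 (SE 0.288, adjusted p 7.89e-20). TNFAIP3 stood at 9.38 and 1.65 CPM in RT112 and at 120.5 and 126 in SCaBER (4.54, SE 0.354, adjusted p 2.27e-12). The RT112 siControl libraries were far apart for this gene, and without replicate 1 or replicate 2 of RT112 siControl the line difference ran up to 6.20 or down to 3.71. NFKBIA was at 114 and 119 CPM in RT112 and at 415 and 405 in SCaBER (1.82, SE 0.121, adjusted p 5.1e-14). The remaining 3 members were not called. NFKBIE gave 1.07 (SE 0.466, adjusted p 0.0756), TNFAIP2 gave -0.35 (SE 0.156, adjusted p 0.0863) and IRAK2 gave -1.81 (SE 1.02, adjusted p 0.175). NFKBIE was called by DESeq2 (1.09, adjusted p 0.0426) and by limma on the TPM scale (1.19, adjusted p 0.0248). With the replicate number as a block TNFAIP2 was called, at -0.35 (adjusted p 0.0376). Without SCaBER siControl replicate 2 it was also called (-0.56, adjusted p 0.0259), as NFKBIE was without SCaBER siControl replicate 1 (1.43, adjusted p 0.0476).

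**Figure D1:**
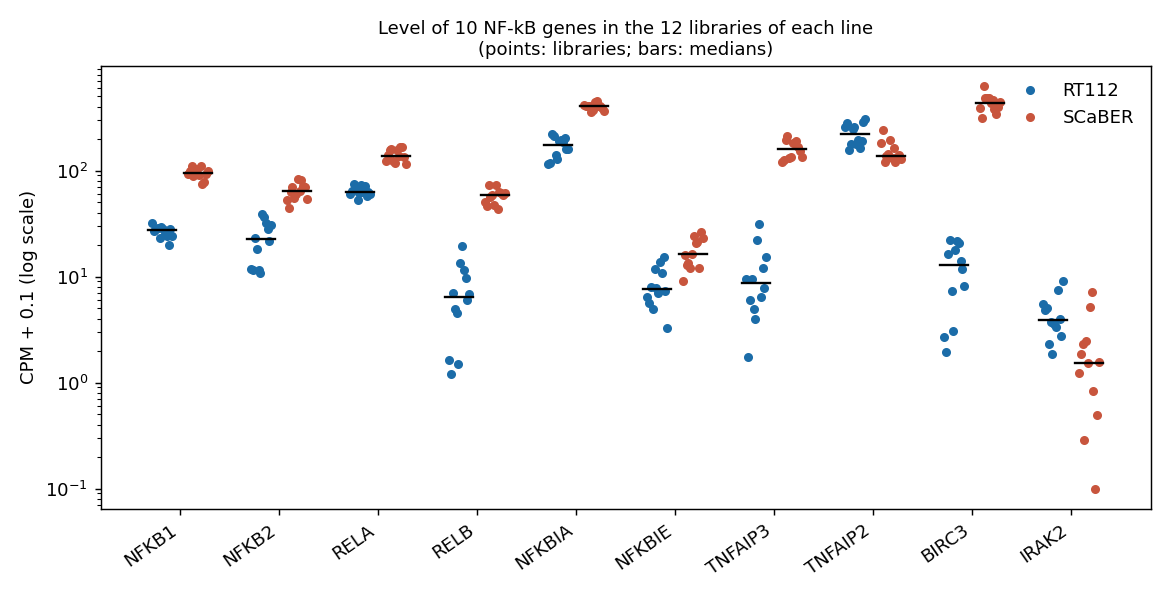
Level of the 10 members in the 12 libraries of each line, as CPM plus 0.1 on a log axis, with a bar at the median. The points of the lines do not overlap for NFKB1, NFKB2, RELA, RELB, NFKBIA, TNFAIP3 and BIRC3, and they overlap for NFKBIE, TNFAIP2 and IRAK2. The share of all genes without overlap was not counted.

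Over all 6 treatments the same 7 members had separate ranges in the lines. The share of all genes with separate ranges was not counted, and 33.6% of all genes were called between the lines under siControl. The 12 RT112 libraries ran from 1.84 to 21.9 CPM for BIRC3 and the 12 SCaBER libraries from 315 to 629. RELB ran from 1.10 to 19.1 CPM in RT112 and from 43.4 to 72.6 in SCaBER. For TNFAIP3 the ranges were 1.65 to 31.5 and 120.5 to 212 CPM. The highest RT112 library therefore stayed under the lowest SCaBER library for each of these genes, whatever the siRNA.

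The effect of FOXA1 depletion was then examined in RT112, where 23.3% of the 13264 genes tested were called under siFOXA1 in either direction. Of the 10 members 6 were called, 5 higher and 1 lower, with a median log2 fold change of 0.73 beside -0.015 over all genes. The 5 that rose were RELB and NFKB2, which encode the non-canonical pair, and the brakes BIRC3, TNFAIP3 and NFKBIA. The member that fell was TNFAIP2. The canonical subunits NFKB1 (-0.16, SE 0.287, adjusted p 0.753) and RELA (0.13, SE 0.202, adjusted p 0.694) were not called.

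RELB went from 1.53 and 1.10 CPM under siControl to 13.3 and 19.1 under siFOXA1 (7 and 6 counts against 66 and 88). Its log2 fold change was 3.59 (SE 0.685, adjusted p 0.000349). NFKB2 went from 11.6 and 11.4 CPM to 39.2 and 36.3, with a log2 change of 1.70 (SE 0.318, adjusted p 0.000281). Both siFOXA1 libraries were above both siControl libraries for each gene.

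BIRC3 rose from 2.62 and 1.84 CPM to 17.8 and 21.7, with a log2 change of 3.13 (SE 0.524, adjusted p 8.2e-05). NFKBIA rose from 114 and 119 CPM to 189.9 and 193 (0.70, SE 0.144, adjusted p 0.000773). TNFAIP3 stood at 9.38 and 1.65 CPM under siControl and at 22.0 and 31.5 under siFOXA1 (2.28, SE 0.593, adjusted p 0.0061). The size for TNFAIP3 rested on the spread of its controls: it was 3.99 without siControl replicate 1 and 1.49 without siControl replicate 2, where it was no longer called (adjusted p 0.122), and without siFOXA1 replicate 2 it gave 2.00 (adjusted p 0.0605). RELB, NFKB2, BIRC3 and NFKBIA kept their call without any 1 of the 4 libraries.

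TNFAIP2, a TNF-induced gene linked to membrane protrusion, went the other way. It stood at 257 and 281 CPM under siControl and at 178 and 195 under siFOXA1, with a log2 change of -0.54 (SE 0.141, adjusted p 0.00598). Without siControl replicate 2 it gave -0.48 (adjusted p 0.0729), and without siFOXA1 replicate 1 also -0.48 (adjusted p 0.0544). NFKBIE (0.76, SE 0.563, adjusted p 0.365) and IRAK2 (-0.62, SE 0.837, adjusted p 0.656) were not called, the latter with 15 to 26 counts per library.

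On the deposited TPM scale the median of all genes moved by -0.29 in RT112, and NFKBIA was not called there (0.39, adjusted p 0.155), while the other 5 calls held. Transcripts of the mitochondrial genome took 18.6% to 22.7% of the counts in the RT112 libraries with FOXA1 siRNA and 8.22% to 17.8% in those without. The summed level of the 9 luminal markers was 672 to 913 CPM with and 928 to 1339 without that siRNA. The 8 basal markers summed to 325 to 603 CPM with and 295 to 420 without it, and the 5 fibroblast markers to 108 to 139 and 116 to 186. The fibroblast sum was mostly LUM, at 134 CPM in RT112 siControl beside 4.71 for COL1A1. COL1A2 and COL3A1 had 0 counts in all 12 RT112 libraries and DCN had 2 at most. The 3 endothelial markers summed to 5.67 CPM at most and the 6 immune markers to 2.57. The part of the mitochondrial share and of these marker lists in these changes was not tested. In these bulk samples a change in the number of cells of a kind and a change in RNA per cell cannot be told apart. Without the RT112 siZBED2-2 libraries in the fit, an alternative added after the data were seen, 6 members were again called.

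**Figure D2:**
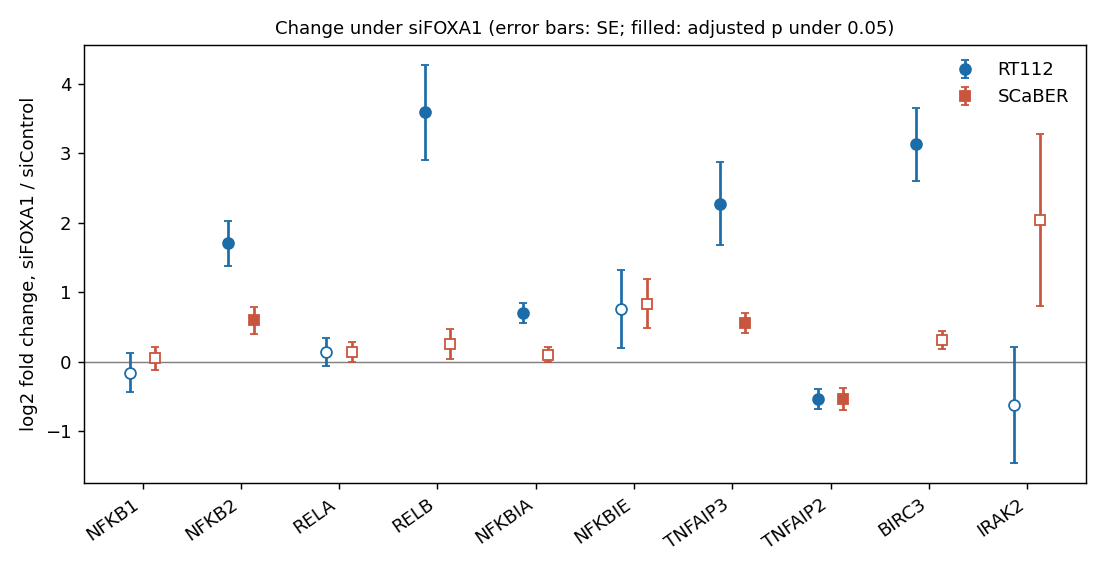
Log2 fold change of each member under siFOXA1 against siControl, with its SE, in RT112 (circles) and SCaBER (squares), filled where the adjusted p was under 0.05. RELB (3.59), BIRC3 (3.13) and TNFAIP3 (2.28) stand highest in RT112, and TNFAIP2 lies at -0.54 in both lines.

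In SCaBER 17.8% of the 13129 genes tested were called under siFOXA1, and 3 of the 10 members were, with a median log2 fold change of 0.28 beside -0.016 over all genes. NFKB2 and TNFAIP3 rose and TNFAIP2 fell. TNFAIP3 went from 120.5 and 126 CPM to 183 in both siFOXA1 libraries, with a log2 change of 0.55 (SE 0.141, adjusted p 0.0045), and this call held in all 10 alternatives. NFKB2 was at 52.5 and 44.2 CPM under siControl and at 83.8 and 64.0 under siFOXA1 (0.59, SE 0.196, adjusted p 0.031). This call was lost without siControl replicate 1 (0.72, adjusted p 0.0524), siControl replicate 2 (0.48, adjusted p 0.233) or siFOXA1 replicate 1 (0.39, adjusted p 0.294). TNFAIP2 was at 182 and 241 CPM and then at 132 and 162 (-0.54, SE 0.162, adjusted p 0.017). It was not called without siControl replicate 2 (-0.32, adjusted p 0.333) or siFOXA1 replicate 1 (-0.39, adjusted p 0.18).

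The other 7 members were not called in SCaBER. BIRC3 was at 392 and 315 CPM under siControl and at 428 and 463 under siFOXA1, with a log2 change of 0.32 (SE 0.130, adjusted p 0.0941), and with the replicate block it was called (0.32, adjusted p 0.0392). It was also called without siControl replicate 1 (0.48, adjusted p 0.0404). RELB gave 0.25 (SE 0.216, adjusted p 0.497), with siFOXA1 libraries at 72.6 and 43.4 CPM on either side of the siControl libraries at 50.4 and 46.0. NFKBIA gave 0.10 (SE 0.112, adjusted p 0.623), NFKB1 0.05 (SE 0.166, adjusted p 0.89) and RELA 0.13 (SE 0.145, adjusted p 0.611). NFKBIE gave 0.83 (SE 0.352, adjusted p 0.103). IRAK2, which relays interleukin-1 and Toll-like receptor signals, rested on few reads, with 6 and 9 counts under siControl and 25 and 31 under siFOXA1 (2.03, SE 1.24, adjusted p 0.292). The mitochondrial share did not separate these SCaBER libraries, at 9.29% to 12.9% with and 9.55% to 12.0% without FOXA1 siRNA.

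Whether the lines responded differently was tested directly as the siFOXA1 change in SCaBER minus that in RT112, a contrast that called 2.58% of all genes. Of the 10 members 4 were called, all with the smaller log2 rise in SCaBER. RELB gave -3.35 (SE 0.538, adjusted p 0.000238) and BIRC3 gave -2.82 (SE 0.390, adjusted p 3.02e-05), and both held in all 14 alternatives. TNFAIP3 gave -1.76 (SE 0.460, adjusted p 0.029) and NFKBIA -0.60 (SE 0.166, adjusted p 0.0444). These last calls were not stable. NFKBIA was lost without any 1 of the 8 libraries (adjusted p 0.063 to 0.134). TNFAIP3 was lost without 6 of the 8 (adjusted p 0.063 to 0.327) and kept without RT112 siControl replicate 1 or RT112 siFOXA1 replicate 1, its value running from -3.42 to -0.94. NFKB2 gave -1.10 (SE 0.337, adjusted p 0.0712) and was not called by edgeR. DESeq2 called it (-1.10, adjusted p 0.0162) and did not call TNFAIP3 (-1.73, adjusted p 0.115). These differences are on the log2 scale. In mean CPM BIRC3 went from 354 to 446 in SCaBER and from 2.23 to 19.7 in RT112. TNFAIP3 went from 123 to 183 in SCaBER and from 5.52 to 26.8 in RT112. For both the rise in CPM was larger in SCaBER, and for RELB and NFKBIA it was smaller there.

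Averaged over the 3 ZBED2 backgrounds, the comparison of 6 libraries with and 6 without FOXA1 siRNA called 33.8% of genes in RT112. The same 5 members were higher there: RELB by 1.85 (SE 0.368, adjusted p 0.000292), BIRC3 by 1.32 (SE 0.280, adjusted p 0.000582), TNFAIP3 by 1.32 (SE 0.340, adjusted p 0.00363) and NFKB2 by 1.15 (SE 0.181, adjusted p 1.75e-05) on the log2 scale. NFKBIA was higher by 0.25 (SE 0.0827, adjusted p 0.0185), which turned to -0.020 on the TPM scale. All 5 calls held without any 1 of the 12 libraries. TNFAIP2 was not called in this average. With siZBED2-1 present, mean BIRC3 was at 19.1 CPM without and 17.3 with FOXA1 siRNA, and NFKBIA at 218 and 192. Of the 6 RT112 libraries with FOXA1 siRNA, 5 were above the highest without it for NFKB2. For RELB and for TNFAIP3 4 were, and for BIRC3 and for NFKBIA 0 were. In SCaBER, where 24.1% of genes were called, 3 members were: NFKBIE (0.66, adjusted p 0.0143), NFKB2 (0.30, adjusted p 0.047) and TNFAIP2 (-0.30, adjusted p 0.0195). NFKBIE, a further IkB protein, was above the highest of the 6 libraries without FOXA1 siRNA (16.3 CPM) in 5 of the 6 libraries with it. Its call was lost without siControl replicate 1 or siFOXA1+siZBED2-1 replicate 1 (adjusted p 0.0643 and 0.0938). The calls of NFKB2 and TNFAIP2 were lost without 8 and 6 of the 12 libraries, with adjusted p up to 0.179 and 0.117.

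**Figure D3:**
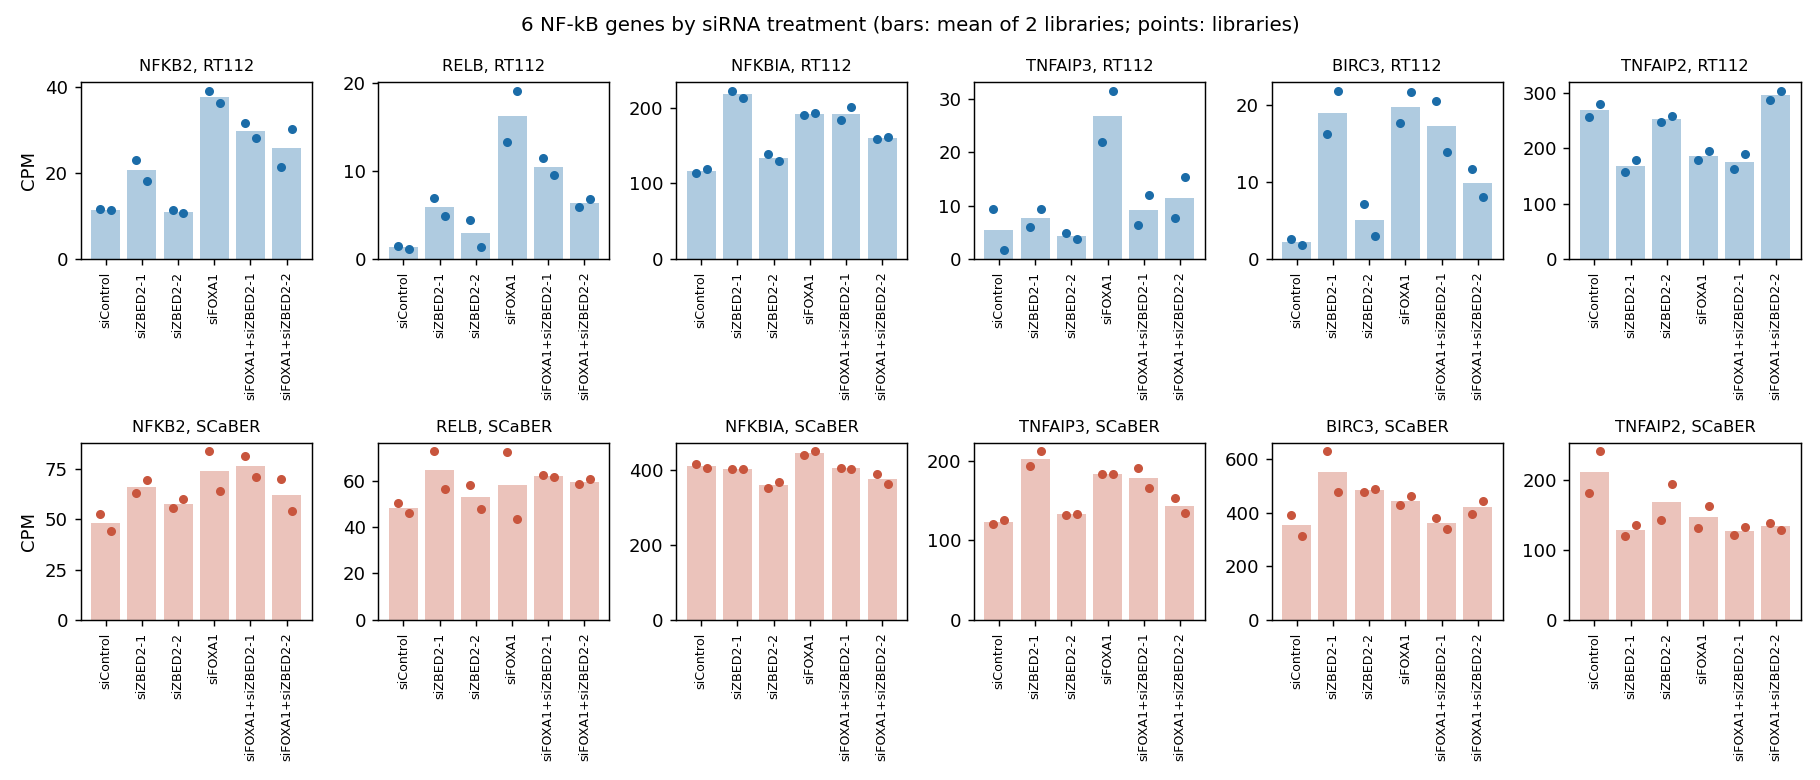
CPM of 6 members by treatment in RT112 (upper row) and SCaBER (lower row), with bars at the mean of 2 libraries and points for the libraries. In RT112 BIRC3 is at 14.0 to 21.9 CPM with siZBED2-1, siFOXA1 or both and at 1.84 and 2.62 with siControl, and TNFAIP2 is as high with siFOXA1+siZBED2-2 (287 and 304 CPM) as with siControl (257 and 281).

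The ZBED2 siRNAs were examined one by one. In RT112 siZBED2-1 called 8.8% of genes and 4 of the 10 members, and the median log2 fold change of all 10 was 0.34. BIRC3 was at 16.2 and 21.9 CPM with siZBED2-1, against 2.62 and 1.84 with siControl, with a log2 change of 3.09 (SE 0.524, adjusted p 0.000275). NFKBIA was at 223 and 213 CPM against 114 and 119 (0.90, adjusted p 0.000136). Both calls held in all 11 alternatives. RELB, at 35 and 22 counts against 7 and 6, gave 2.15 (adjusted p 0.0488), and this call was lost without any 1 of the 4 libraries (adjusted p 0.0949 to 0.29). TNFAIP2 fell to 157 and 179 CPM (-0.68, adjusted p 0.0023), a call lost without siZBED2-1 replicate 1 (-0.59, adjusted p 0.0537). The non-canonical subunit NFKB2 was at 23.2 and 18.2 CPM, above both siControl libraries, and was not called.

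In SCaBER siZBED2-1 called 4.65% of genes and 3 of the 10 members, and the median of all 10 was 0.15. TNFAIP3 rose to 193 and 212 CPM from 120.5 and 126 (0.69, adjusted p 0.00167), a call that held in all 10 alternatives. BIRC3 was at 629 and 479 CPM against 392 and 315 (0.62, adjusted p 0.00241). TNFAIP2 was at 121 and 136 CPM against 182 and 241 (-0.75, adjusted p 0.00385). The calls of BIRC3 and TNFAIP2 were lost without siControl replicate 2 (0.48, adjusted p 0.127; -0.52, adjusted p 0.184) and without siZBED2-1 replicate 1 (0.41, adjusted p 0.177; -0.66, adjusted p 0.0989). TNFAIP2 was thus lower with siZBED2-1 in both lines, as it was with siFOXA1, and these comparisons share their siControl libraries.

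With siZBED2-2 the edgeR test called 0 of the 10 members in RT112, where 0.166% of genes were called, and 0 in SCaBER, where 0.625% were. At an unadjusted p under 0.05 there was 1 member in each line, BIRC3 both times, and DESeq2 called 0 in either line. In SCaBER BIRC3 was at 479 and 488 CPM with siZBED2-2, above both siControl libraries (0.45, SE 0.130, adjusted p 0.146), and it was called with the replicate block (0.46, adjusted p 0.0265). In RT112 the siZBED2-2 libraries held 37 and 17 counts of BIRC3 against 12 and 10 (1.17, SE 0.541, adjusted p 0.84). TNFAIP2 in RT112 stayed at 247 and 259 CPM.

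The ZBED2 siRNAs were set against each other directly, a comparison added after the data were seen. In RT112, where 7.77% of genes differed, 3 members did. With siZBED2-1 over siZBED2-2, NFKBIA was higher by 0.71 (SE 0.143, adjusted p 0.00214) and BIRC3 by 1.92 (SE 0.478, adjusted p 0.012), and TNFAIP2 was lower, at -0.59 (SE 0.141, adjusted p 0.00955). NFKBIA held without any 1 of the 4 libraries. BIRC3 was lost without siZBED2-1 replicate 2 (1.69, adjusted p 0.13) or siZBED2-2 replicate 2 (1.40, adjusted p 0.178). TNFAIP2 was lost without siZBED2-1 replicate 1 (-0.50, adjusted p 0.122) or siZBED2-2 replicate 2 (-0.57, adjusted p 0.0578). In SCaBER, with 4.01% of genes called, only TNFAIP3 differed among the members (0.58, SE 0.139, adjusted p 0.0105), and this call was lost without 3 of the 4 libraries, siZBED2-1 replicate 1 being the exception (adjusted p 0.0785 to 0.153).

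Adding a ZBED2 siRNA to siFOXA1 brought few calls among the members, with 2 libraries per group. The median log2 fold change of the 10 members was -0.13 with siZBED2-1 and -0.40 with siZBED2-2 in RT112. In SCaBER it was -0.17 with either, and the medians over all genes lay from -0.006 to 0.008. With siFOXA1+siZBED2-1 against siFOXA1 the edgeR test called 0 of 10 in RT112 (2.55% of genes called) and 0 of 10 in SCaBER (2.73%). At an unadjusted p under 0.05 there were 1 and 3 members, and DESeq2 called 0 in both. The 1 in RT112 was TNFAIP3, at 6.37 and 12.0 CPM against 22.0 and 31.5 under siFOXA1. In SCaBER IRAK2 held 4 and 0 counts with siFOXA1+siZBED2-1 against 25 and 31 under siFOXA1, and was not called (adjusted p 0.159). With siFOXA1+siZBED2-2 against siFOXA1, 1.25% of genes and 1 member were called in RT112. That member was TNFAIP2, at 287 and 304 CPM against 178 and 195 (0.67, SE 0.141, adjusted p 0.0157), and it was lost without any 1 of the 4 libraries (adjusted p 0.0659 to 0.147). RELB was at 5.95 and 6.81 CPM against 13.3 and 19.1, and was not called (-1.34, SE 0.594, adjusted p 0.324). In SCaBER 3.66% of genes and 0 members were called, with 2 members at an unadjusted p under 0.05 and 0 by DESeq2.

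**Figure D4:**
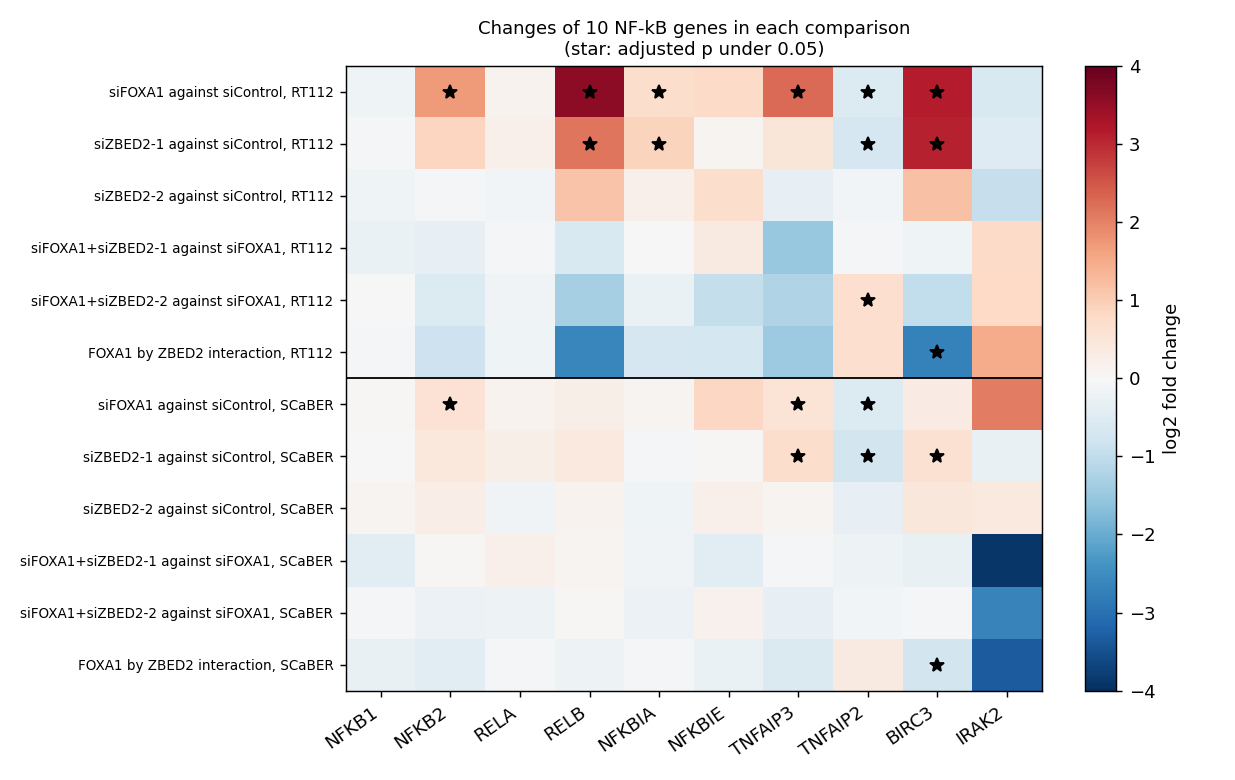
Log2 fold change of the 10 members (columns) in 6 comparisons per line (rows), on a colour scale from -4 to 4, with a star where the adjusted p was under 0.05. The interaction row carries a star for BIRC3 in each line, at -2.72 in RT112 and -0.73 in SCaBER.

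Whether the ZBED2 siRNAs acted differently once FOXA1 siRNA was present was tested as an interaction, the mean ZBED2 siRNA change on siFOXA1 minus that on siControl. BIRC3 was the member called, in each line. In RT112, where 0.611% of genes were called, it gave -2.72 (SE 0.614, adjusted p 0.0336). It was at 1.84 to 2.62 CPM with siControl, 16.2 and 21.9 with siZBED2-1, and 7.13 and 2.97 with siZBED2-2. With siFOXA1 it was at 17.8 and 21.7, with siFOXA1+siZBED2-1 at 20.6 and 14.0, and with siFOXA1+siZBED2-2 at 11.7 and 8.08. The libraries with siZBED2-1 alone, siFOXA1 alone and both overlapped. In RT112 siFOXA1 alone left ZBED2 at 5.45 and 1.52 CPM, beside 22.0 and 16.9 with siControl. The ZBED2 siRNAs thus had less ZBED2 to remove there, and the part of this in the interaction was not tested. This RT112 call was lost without 8 of the 12 libraries (adjusted p 0.0601 to 0.271), and kept without siFOXA1 replicate 1, siFOXA1+siZBED2-1 replicate 1, siFOXA1+siZBED2-2 replicate 1 or siZBED2-2 replicate 2. It was also not called on the TPM scale (adjusted p 0.342), and DESeq2 gave it no adjusted p. In SCaBER, where 2.29% of genes were called, BIRC3 gave -0.73 (SE 0.160, adjusted p 0.0076), lost without siControl replicate 2 (-0.58, adjusted p 0.125) or siFOXA1 replicate 2 (-0.67, adjusted p 0.0524). Mean BIRC3 in SCaBER was 354 CPM with siControl, 554 with siZBED2-1 and 483 with siZBED2-2. With siFOXA1 it was 446, with siFOXA1+siZBED2-1 361 and with siFOXA1+siZBED2-2 420. With the replicate block 3 members were called in RT112, the others being NFKBIA (-0.67, adjusted p 0.0363) and TNFAIP2 (0.68, adjusted p 0.0191). In SCaBER 2 were called with the block, the other being TNFAIP3 (-0.59, adjusted p 0.0277).

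How the members moved together was described by the correlation of log2 CPM over the 12 libraries of a line, which share 6 treatments and 1 fit. In RT112 the highest values were those of NFKBIA with BIRC3 (r = 0.931), NFKB2 with RELB (0.925) and RELB with BIRC3 (0.910). In SCaBER the highest were RELA with TNFAIP3 (0.784) and NFKB2 with TNFAIP3 (0.753). Among 11763 genes tested in both lines, those most like NFKB2 by the mean r of both lines were PARD6B (0.915), LPIN1 (0.892), LYN (0.891), GABARAPL1 (0.891) and MED6 (0.885). Those most like NFKBIA were LMBRD1 (0.816), TRAM1 (0.802), SLFN5 (0.790), FAM118A (0.788) and OPTN (0.784).

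The wider pathway was read from 6 lists with 72 genes, of which 52 were tested in RT112 and 62 in SCaBER. Under siFOXA1, 7 rose and 2 fell in RT112, which is 17.3% of those tested beside 23.3% of all genes. In SCaBER 12 rose and 8 fell, 32.3% beside 17.8% of all genes. The median log2 fold changes were 0.26 and 0.27. Of the 5 other subunits and IkB proteins, 1 rose in RT112 (NFKBID, an atypical nuclear IkB protein, 1.68, adjusted p 0.0156) and 1 fell in SCaBER (BCL3, another nuclear IkB protein, -0.66, adjusted p 0.0315). Of the 10 kinases tested in each line, 1 rose in RT112, the IkB kinase subunit IKBKB (1.27, adjusted p 0.01), and 0 were called in SCaBER at an adjusted p under 0.05. IKBKB was at 12.4 and 12.9 CPM under siControl and at 25.6 and 36.3 under siFOXA1 in RT112.

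Among receptors and ligands, 1 of 8 tested rose in RT112, and 2 rose and 1 fell (IL1R1) of 9 in SCaBER. In SCaBER interleukin-1 alpha (IL1A) rose from 27.1 and 22.2 CPM to 50.7 and 42.04 (0.89, adjusted p 0.00176), and LTBR, the lymphotoxin beta receptor that feeds the non-canonical pathway, rose by 0.63 (adjusted p 0.0196). The 1 gene in RT112 was IL1B, interleukin-1 beta, at 1.53 and 1.10 CPM under siControl and 6.26 and 4.13 under siFOXA1 (1.96, adjusted p 0.0174). IL1B was singled out after its values were seen, and with siZBED2-1 it rose in both lines, by 3.18 (adjusted p 0.000621) in the RT112 cells and by 1.06 (adjusted p 0.000519) in SCaBER.

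Of the adaptors and ubiquitin ligases, IRAK1, the kinase of the interleukin-1 receptor complex, fell in both lines. It went from 165 and 164 CPM to 82.9 and 78.5 in RT112 (-1.04, adjusted p 0.000282) and from 364 and 295 to 248 and 234 in SCaBER (-0.47, adjusted p 0.0112). In this list 1 rose (BIRC2) and 1 fell of 13 tested in RT112, and 4 rose (IRAK4, RBCK1, MYD88 and TRAF1) and 2 fell (IRAK1 and SHARPIN) of 14 in SCaBER. Genes named in these lists without values complete these small counts and were chosen after their values were seen. CYLD, a deubiquitinase that restrains the pathway, rose in both lines, from 20.7 and 18.6 CPM to 60.1 and 54.1 in RT112 (1.53, adjusted p 0.000447) and from 48.9 and 47.0 to 129 and 94.5 in SCaBER (1.20, adjusted p 7.94e-05). It was 1 of 2 negative regulators called of 6 in RT112, with 1 up and 1 down (TNIP1), and the 1 called of 7 in SCaBER.

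Of the target genes 2 of 10 tested rose in RT112 and 0 fell, and 5 rose (SDC4, BCL2L1, IL32, SOD2 and ICAM1) and 4 fell (C3, LCN2, CXCL8 and CXCL1) of 17 in SCaBER. Those that rose in both lines were SDC4, a syndecan (0.93, adjusted p 1.3e-05; 1.57, adjusted p 1.91e-11), and BCL2L1, a survival factor of mitochondria (1.02, adjusted p 0.0293; 0.68, adjusted p 0.0446), each given for RT112 first. SDC4 was at 262 and 277 CPM under siControl in RT112 and at 466 and 571 under siFOXA1. Many inducible targets were too low to test in RT112, 12 of the 22 listed, among them CXCL1, CCL20, IL6 and ICAM1.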

How the data were processed

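Messenger RNA of 24 libraries was measured by 3′ RNA-seq (QuantSeq FWD). The authors deposited raw counts per gene, and per the file headers TrimGalore 0.6.2 removed bases under quality 20 and reads shorter than 10 bases, and the single-end reads were aligned with STAR 2.6.1a to hg38 and counted by STAR on GENCODE 29. The study's methods name hg19 instead, and the deposited settings were followed. Strandedness was set to automatic. They also deposited TPM values, whose length scaling does not suit 3′ reads. TPM was used for a single alternative.

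Counts were tested with the quasi-likelihood F-test of edgeR 4.0.16 (R 4.3.3, TMM, filterByExpr with minimum count 10 and minimum total 15). A single fit of 12 libraries per line had a mean for each of 6 groups, and all 24 libraries entered the fits of line differences. Called means a Benjamini-Hochberg adjusted p under 0.05 over all genes tested. SE is the log2 fold change over the root of its F value. CPM are counts on TMM-scaled library sizes, brought to a common total. The fit was tested on simulated data. Alternatives were RLE factors, no filter, DESeq2 1.42.0, limma 3.58.1 on log2(TPM + 0.5), the replicate block, only the groups compared, and leaving out each library.

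The field of the labels that holds the replicate number is named for the experiment batch. The main fits had no block for it, and the block was an alternative. Deviations of equal numbers correlated at 0.034 on average in RT112 and 0.026 in SCaBER, and 0 of 15 pairs of groups exceeded 0.1 in either line. Replicate 2 nevertheless had fewer genes detected than replicate 1 in every group. The block raised the number of genes called in every comparison, from 81 to 212 for the RT112 interaction and from 300 to 508 for that in SCaBER. Nothing states that replicates came from separate cultures, so p-values measure the spread between these libraries. The members and lists were chosen with earlier results of these data known. Named pathway genes were those called under siFOXA1 in both lines the same way (up to 3 per direction and list), or otherwise up to 2 called in 1 line by p. NFKB1, RELA, TNFAIP3, TNFAIP2 and IRAK2 overlap another RefSeq gene, and whether the counting separated reads of such pairs was not tested.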

Additional observations from a re-analysis of the deposited data

Results flagged for a closer look

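The response to siFOXA1 differed between the lines by the test of the difference itself for 4 members, each with the smaller log2 rise in SCaBER. The values of SCaBER minus RT112 were -3.35 for RELB (adjusted p 0.000238), -2.82 for BIRC3 (adjusted p 3.02e-05), -1.76 for TNFAIP3 (adjusted p 0.029) and -0.60 for NFKBIA (adjusted p 0.0444), all log2. The calls of RELB and BIRC3 held in all 14 alternatives. That of NFKBIA was lost without any 1 of the 8 libraries, and that of TNFAIP3 without 6 of the 8, its value running from -3.42 to -0.94 over the 8. The effect of ZBED2 siRNA on BIRC3 differed with the presence of FOXA1 siRNA by the edgeR test in both lines, with log2 values of -2.72 (adjusted p 0.0336) in the RT112 libraries and -0.73 (adjusted p 0.0076) in SCaBER. The RT112 call was lost without 8 of the 12 libraries (adjusted p 0.0601 to 0.271) and on the TPM scale, and DESeq2 gave it no adjusted p. The SCaBER call was lost without siControl replicate 2 or siFOXA1 replicate 2, and on the TPM scale. In RT112 siFOXA1 alone also lowered ZBED2, to 5.45 and 1.52 CPM, and the part of this in the interaction was not tested. With 2 libraries per group no test for a single outlying library was made.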

How the results depend on the processing

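Of the 42 called member values, each recomputed under the alternatives other than leaving out a library, 226 of 252 values stayed on the same side of the threshold in the same direction, 25 were no longer called and 1 reversed. Leaving out a library ended the call in 69 of 264 values and kept it in 195. The replicate block lost none of the 42 calls. On the deposited TPM scale the median of all genes moved by -0.29 (siFOXA1, RT112), -0.14 (siFOXA1, SCaBER) and 0.21 (line difference). With limma on TPM the number of members called fell to 0 for the RT112 interaction, the SCaBER interaction, siFOXA1+siZBED2-2 against siFOXA1 in RT112 and siZBED2-1 against siZBED2-2 in RT112. It fell to 1 for siFOXA1, FOXA1 siRNA over 3 backgrounds and siZBED2-1 in SCaBER, and to 2 for siZBED2-1 in RT112 and for the response difference between lines. That difference also fell to 2 with only the groups compared, which gave 1 for siFOXA1+siZBED2-1 against siFOXA1 in SCaBER. DESeq2 called 2 members for each interaction, NFKBIA and TNFAIP2 but not BIRC3 in RT112, and BIRC3 and TNFAIP3 in SCaBER, and the fit without a filter called 2 for the RT112 interaction and 1 for siZBED2-2 in SCaBER. The replicate block called 3 and 2 members for the interactions in RT112 and SCaBER, and 1 for siZBED2-2 in SCaBER. Leaving out a library gave 0 to 1 members called for each interaction, 0 to 3 for FOXA1 siRNA over 3 backgrounds in SCaBER, 1 to 3 for siFOXA1 in SCaBER, 2 to 3 for the response difference, 0 for siFOXA1+siZBED2-2 in RT112, 2 to 3 and 1 to 3 for siZBED2-1 in RT112 and SCaBER, and 1 to 3 and 0 to 1 for siZBED2-1 against siZBED2-2. On the TPM scale the sign turned for NFKBIA over 3 backgrounds in RT112 (-0.020) and, under siFOXA1, for RELA in RT112 (-0.17) and for NFKB1 (-0.090), NFKBIA (-0.037) and RELA (-0.0053) in SCaBER. Without 1 library, siFOXA1 in SCaBER gave NFKB1 from -0.11 to 0.20 and RELB from -0.17 to 0.57. The cause of these shifts was not tested. At 4425404 to 6119210 counts per library, RELB and BIRC3 in RT112 and IRAK2 in SCaBER rest on few reads.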
